A study of Mus musculus with 10 samples.

Results

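The 4 class III POU genes of the mouse, Pou3f1 (Oct6), Pou3f2 (Brn2), Pou3f3 (Brn1) and Pou3f4 (Brn4), were followed in the cortex of single mouse embryos at embryonic day 12. They were taken by symbol from the 24814 genes of the expression table, and all 4 were present and passed the filter on low values that left 13833 genes to test. The tested embryos, called cKO, were Emx1 Cre/+; Zbtb7a fl/fl, and their controls, called WT, were Emx1 Cre/+; Zbtb7a +/+, so both genotypes carried the Cre driver. There were 5 libraries of polyadenylated RNA for each genotype, each labelled as a separate animal, and the labels give the litter as the batch. Litter 1 held cKO 1, cKO 2, cKO 3, WT 1 and WT 2, litter 3 held cKO 4, WT 3 and WT 4, and litter 5 held cKO 5 and WT 5. The series text counts fewer cortices and litters than these labels, and the labels were followed. Emx1-Cre acts in the lineage of dorsal telencephalic progenitors, so other cells of the dissected cortex keep the floxed allele intact. In RNA from whole tissue, fewer cells of a type and less RNA per cell cannot be told apart.

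Pou3f proteins bind DNA through a bipartite POU domain, made of a POU-specific domain and a homeodomain joined by a linker, and they often do so beside a Sox protein. In the developing cortex Pou3f2 and Pou3f3 act redundantly in neural progenitors and in the production and migration of upper-layer neurons, while Pou3f1 is best known from Schwann cell myelination and early neural fate, and Pou3f4 from the inner ear and the striatum. Zbtb7a encodes a BTB zinc finger repressor.

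As a check of the labels, Zbtb7a lay between 3.5 and 5.96 TPM in cKO libraries and between 7.20 and 12.53 TPM in WT libraries, without overlap (two-sided exact permutation p = 0.00794, the smallest that 5 against 5 allows). TPM, a transcript abundance, is scaled for gene length and to a fixed total per library, so levels of different genes can be compared, and the read depth behind them is unknown. The label of cortex was matched by dorsal telencephalic genes, with Emx1, the gene whose promoter drives the Cre, at 176 ± 38.4 TPM in cKO and 176 ± 35.6 TPM in WT (SD, n = 5 each). A list of 15 ventral telencephalic genes, which mark the ganglionic eminences and their interneurons, summed to between 3.86 and 194.75 TPM and so set some libraries apart. Globin transcripts took 4.17% to 5.57% of the TPM in litter 3 and 1.73% to 2.64% in the other litters.

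The members are compact, intronless genes with closely related coding regions, and the stretch that unites them is shown first because it says how well their reads can be separated. Each has 1 exon on GRCm38 in GENCODE M21, with 1350 coding bases in Pou3f1 (ENSMUSG00000090125, chr4:124656807-124660655, plus strand), 1338 in Pou3f2 (ENSMUSG00000095139, chr4:22482780-22488366, minus strand), 1494 in Pou3f3 (ENSMUSG00000045515, chr1:42695768-42703176, plus strand) and 1086 in Pou3f4 (ENSMUSG00000056854, chrX:110814280-110817207, plus strand). The most conserved gap-free window of 60 coding bases, which encodes part of the POU-specific domain upstream of the homeodomain, is identical in all 4 genes at 50 positions and differs at 10, marked by capitals. The windows lie at chr4:124658523-124658582, chr4:22487199-22487258 on the minus strand, chr1:42698160-42698219 and chrX:110815104-110815163.
Pou3f1: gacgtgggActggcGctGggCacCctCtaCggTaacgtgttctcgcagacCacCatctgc
Pou3f2: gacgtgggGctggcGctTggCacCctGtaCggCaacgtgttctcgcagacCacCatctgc
Pou3f3: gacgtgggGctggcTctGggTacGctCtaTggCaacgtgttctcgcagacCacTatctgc
Pou3f4: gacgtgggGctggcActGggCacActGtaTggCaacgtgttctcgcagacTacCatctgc
The run of bases without capitals in the second part of the window is common to all 4 genes.

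Over the whole aligned coding region, identity between pairs ran between 61.1% for Pou3f1 with Pou3f4 and 70.6% for Pou3f2 with Pou3f3. The longest identical coding run of any pair was 38 bases, in Pou3f1 and Pou3f2, and no stretch of 50 bases was shared between the transcripts of any 2 members. Stretches of 50 bases recurred in transcripts of other genes, 170 for Pou3f2, 45 for Pou3f4, 7 for Pou3f3 and 1 for Pou3f1, and the treatment of reads with several matches is likewise unstated. Pou3f3 lies within a gene annotated on its own strand, AC122898.1 (chr1:42694925-42744791), whose exons cover 0 of its bases. Pou3f1 is the member overlapped by an annotated antisense gene, Gm2164 (chr4:124528924-124657169, minus strand), whose exons cover 330 bases of its 5' end. The labels, headers and notes do not say whether reads were counted by strand, so reads from that stretch cannot be assigned to either gene, and Gm2164 was not analysed here.

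The upstream sequences of the 3 members with an entry in the RefSeq promoter table (GRCm38.p6) are shown because Pou3f2 and Pou3f4 moved together between libraries, described further on, and Pou3f3 was the most abundant member. The CCAAT box, in either orientation (CCAAT or ATTGG), is in capitals. Each sequence ends just before the annotated start on the gene's own strand, at chr4:22488367-22488616 for Pou3f2 on the minus strand, chr1:42695518-42695767 for Pou3f3 and chrX:110814129-110814279 for Pou3f4.
Pou3f2: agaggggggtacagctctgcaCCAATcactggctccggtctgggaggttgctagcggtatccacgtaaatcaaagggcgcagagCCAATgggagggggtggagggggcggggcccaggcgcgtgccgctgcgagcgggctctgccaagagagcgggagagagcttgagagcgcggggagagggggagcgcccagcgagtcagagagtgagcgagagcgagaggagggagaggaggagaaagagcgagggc
Pou3f3: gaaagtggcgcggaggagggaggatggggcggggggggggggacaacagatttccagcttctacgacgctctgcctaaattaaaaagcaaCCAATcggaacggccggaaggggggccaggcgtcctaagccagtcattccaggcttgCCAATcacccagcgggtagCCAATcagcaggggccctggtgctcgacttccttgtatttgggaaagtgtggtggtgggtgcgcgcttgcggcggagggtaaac
Pou3f4: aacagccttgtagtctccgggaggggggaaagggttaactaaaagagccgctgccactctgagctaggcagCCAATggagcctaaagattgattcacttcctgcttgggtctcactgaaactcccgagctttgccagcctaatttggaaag
In the full 250 bases before the RefSeq start, CCAAT had 2 matches in Pou3f2, 3 in Pou3f3 and 3 in Pou3f4. Over 32851 promoter windows of the same length, 33.9% held at least 1 match and 2.79% held 3 or more. The printed Pou3f4 sequence stops at the GENCODE start, which lies before the RefSeq start, and so has 151 bases with 1 match. Its other matches lie within the GENCODE transcript. The GC box GGGCGG (or CCGCCC) had 1 match in each of Pou3f2 and Pou3f3 and none in Pou3f4, against 32.7% of all windows with a match. The octamer ATGCAAAT (or ATTTGCAT), the element POU factors bind, had no match in the 3 windows and was present in 1.6% of all windows. No CCAAT match overlapped a GC box, and a match is only a description of the letters.

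Pou3f3 dominated the family in every library. It averaged 97.8 ± 29.7 TPM over the 10 libraries, above 88.0% of the genes tested, followed by Pou3f2 at 12.2 ± 4.38 TPM, Pou3f4 at 11.9 ± 4.56 TPM and Pou3f1 at 3.75 ± 2.66 TPM (SD, n = 10). Pou3f3 was higher than Pou3f2 in 10 of 10 libraries, by a geometric mean ratio of 8.08, and Pou3f4 was higher than Pou3f1 in 10 of 10, by 3.66. Both orders had an adjusted p of 0.00293 over the 3 neighbouring pairs (two-sided exact permutation of signs, whose smallest unadjusted p is 0.00195). The pairs were set by the mean TPM of these same libraries, so the test asks only whether an order held from library to library. A bias of a gene that all libraries share would not show in it. Pou3f2 and Pou3f4 could not be ordered: Pou3f2 was higher in 6 of 10 libraries, with a mean log2 ratio of 0.04 ± 0.20 (SD) and an adjusted p of 0.539 by the same exact test.

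Pou3f3, a regulator of upper-layer neurons, made up 72.1% to 84.5% of the summed Pou3f TPM in cKO libraries and 72.1% to 83.9% in WT libraries. Pou3f2 made up 7.05% to 12.4% in cKO and 7.79% to 10.9% in WT, and Pou3f4 made up 7.10% to 12.5% in cKO and 7.10% to 12.9% in WT. Pou3f1 ranged between 1.36% and 3.99% in cKO and between 1.22% and 6.10% in WT. The summed TPM of the family was 129 ± 35.5 in cKO and 122 ± 43.5 in WT (SD, n = 5 each). The makeup of the family therefore covered nearly the same range in both genotypes, and the library with the largest Pou3f1 share was WT 5.

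**Figure D1:**
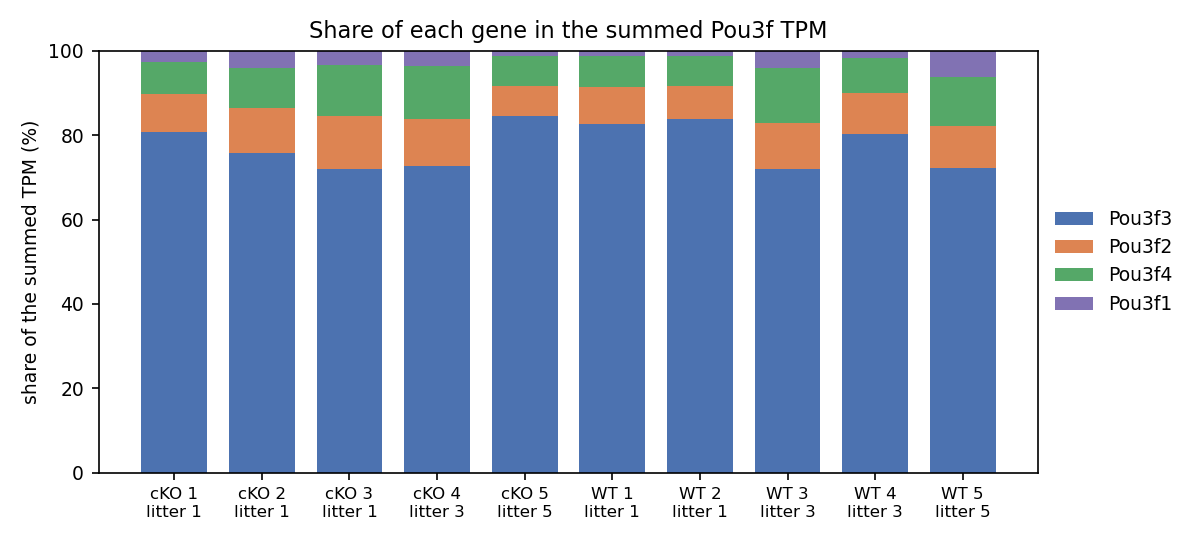
Share of each gene in the summed Pou3f TPM (percent, vertical axis) in each of the 10 libraries (horizontal axis, cKO left of WT, with the litter under each). Pou3f3 forms 72.1% to 84.5% of every bar and Pou3f1 at most 6.10%.

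Over all 10 libraries, no member differed between the genotypes beyond the spread of the libraries. Pou3f1 had 3.95, 5.96, 5.35, 3.09 and 1.28 TPM in cKO 1 to cKO 5 and 2.10, 1.73, 2.74, 1.49 and 9.81 TPM in WT 1 to WT 5. The lowest library of all was cKO 5 and the highest was WT 5, and the genotypes overlapped between 1.49 and 5.96 TPM. Pou3f2, one of the factors used to turn fibroblasts into neurons, had 13.52, 15.90, 20.20, 9.83 and 6.64 TPM in cKO 1 to cKO 5 and 13.72, 11.06, 7.24, 8.34 and 15.90 TPM in WT 1 to WT 5. Here too cKO 5 was lowest of all, cKO 3 was highest, and the genotypes overlapped.

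Pou3f3 had 123.12, 113.16, 117.81, 63.94 and 79.55 TPM in cKO 1 to cKO 5 and 129.32, 119.12, 47.87, 68.05 and 116.25 TPM in WT 1 to WT 5. The low libraries were cKO 4, WT 3 and WT 4, which make up litter 3, and then cKO 5, while the other 6 libraries lay close together. Pou3f4, the X-linked member, had 11.83, 14.25, 20.08, 11.02 and 6.69 TPM in cKO 1 to cKO 5 and 11.27, 10.08, 8.58, 6.90 and 18.77 TPM in WT 1 to WT 5. Its lowest library was again cKO 5, with cKO 3 and WT 5 standing highest, and the genotypes overlapped.

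**Figure D2:**
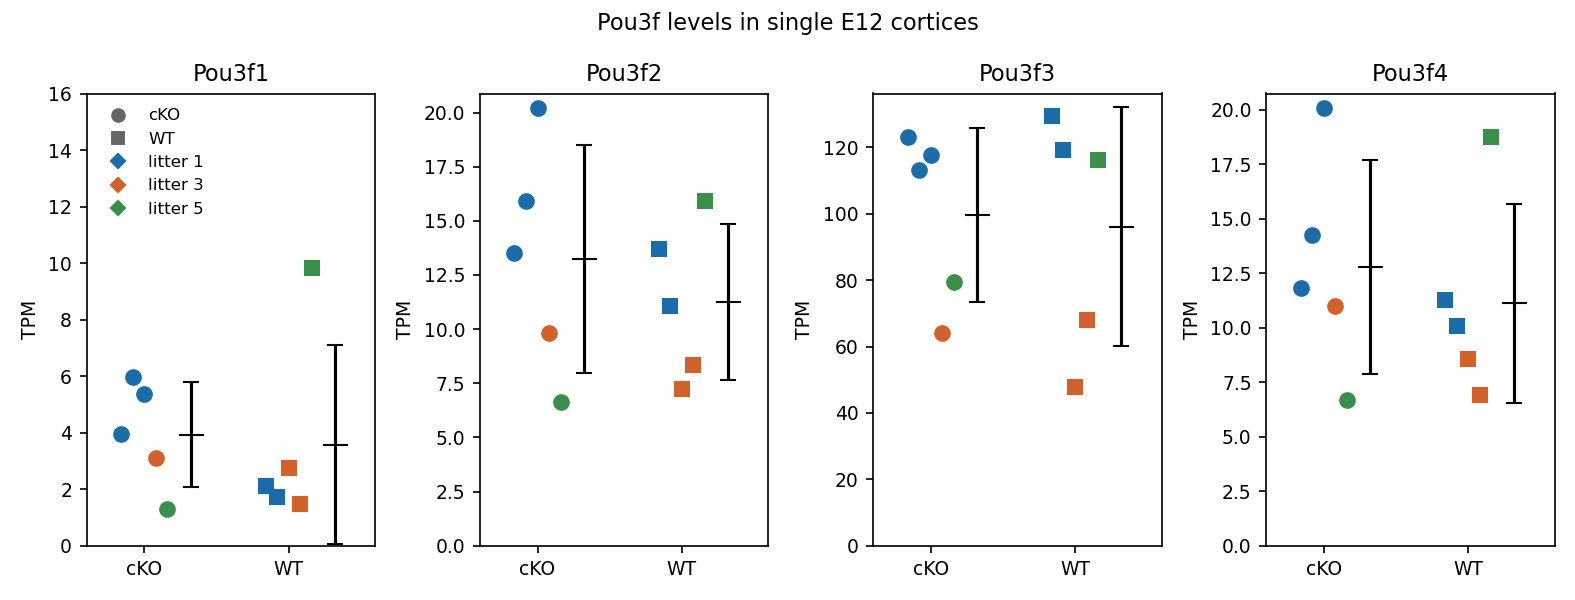
TPM of each Pou3f gene (vertical axis, a scale of its own in each panel) in 5 cKO libraries (circles) and 5 WT libraries (squares), coloured by litter. Bars beside the points are means with SD, and in each panel the genotypes overlap, with the 3 litter 3 points low for Pou3f3 at 47.87 to 68.05 TPM.

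With litter as a term, the cKO minus WT difference on the log2(TPM + 1) scale was 0.18 (SE 0.44, 95% interval -0.80 to 1.16) for Pou3f1, 0.04 (SE 0.23, -0.48 to 0.55) for Pou3f2, -0.11 (SE 0.12, -0.37 to 0.16) for Pou3f3 and 0.08 (SE 0.28, -0.54 to 0.70) for Pou3f4. In limma, 0 of the 4 were called at an adjusted p under 0.05 (adjusted p = 0.9997 for each), beside 0.0361% of all genes tested. In this fit of all 10 libraries none had an unadjusted p under 0.05, beside 2.34% of genes, and 0 of the 4 separated the genotypes without overlap, beside 0.282%. The two-sided exact permutation p (252 arrangements of the genotype labels) was 0.611 for Pou3f1, 0.595 for Pou3f2, 0.802 for Pou3f3 and 0.579 for Pou3f4. Within litters, where 0.0167 is the smallest p possible, the exact permutation values were 0.867, 0.95, 0.517 and 0.867 in the same order of genes. None of the 4 is among the 7 genes of the authors' deposited table of cKO against WT. With 7 genes there beside 24814 in the expression table, absence from it says little about any gene. The interval is narrowest for Pou3f3 and widest for Pou3f1.

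The order of the genotypes differed between litter 5 and the other litters for Pou3f1 and Pou3f4. In litter 1, Pou3f1 was higher in all 3 cKO libraries (3.95 to 5.96 TPM) than in both WT libraries (1.73 and 2.10 TPM), a separation in that direction shared by 9.9% of the genes tested. Pou3f4 was likewise higher in the cKO libraries of litter 1, at 11.83 to 20.08 TPM, than in WT, at 10.08 and 11.27 TPM. In litter 3, cKO 4 lay above both WT libraries for Pou3f1 (3.09 against 2.74 and 1.49 TPM), Pou3f2 (9.83 against 7.24 and 8.34 TPM) and Pou3f4 (11.02 against 8.58 and 6.90 TPM). In litter 5 each of the 4 genes was lower in cKO 5 than in WT 5: Pou3f1 had 1.28 against 9.81 TPM, Pou3f2 6.64 against 15.90 TPM, Pou3f3 79.55 against 116.25 TPM and Pou3f4 6.69 against 18.77 TPM. With 1 library of each genotype, litter 5 has no replicate, and any gene must come out either higher or lower there. The share of all genes with the same orders in litters 3 and 5 was not counted. The members also varied together, as described further on, so they do not count as separate observations.

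The cKO effect in litters 3 and 5 minus that in litter 1 was -1.77 for Pou3f1 (SE 0.71, adjusted p = 0.967 in limma), -0.70 for Pou3f2, -0.07 for Pou3f3 and -0.78 for Pou3f4, and no gene in the table passed the adjusted threshold for this term (0%, with 4.97% at an unadjusted p under 0.05, Pou3f1 among them). Leaving out cKO 4, so that litter 5 alone stood against litter 1, took the value for Pou3f1 to -3.30 with an adjusted p of 0.0542, from 1 library of each genotype in litter 5. Without cKO 5 or without WT 5 it was -0.63 (limma adjusted p = 0.872 and 0.875). The ventral telencephalic list differed between the same libraries: its summed TPM was 13.13, 80.51 and 100.60 in the cKO libraries of litter 1 against 4.06 and 3.86 in WT, and 4.25 in cKO 5 against 194.75 in WT 5. Genes of the cortical hem and choroid plexus also differed in litter 5, with sums of 1041 TPM in cKO 5 and 395 TPM in WT 5. The part of either list in the Pou3f values was not tested in that interaction.

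**Figure D3:**
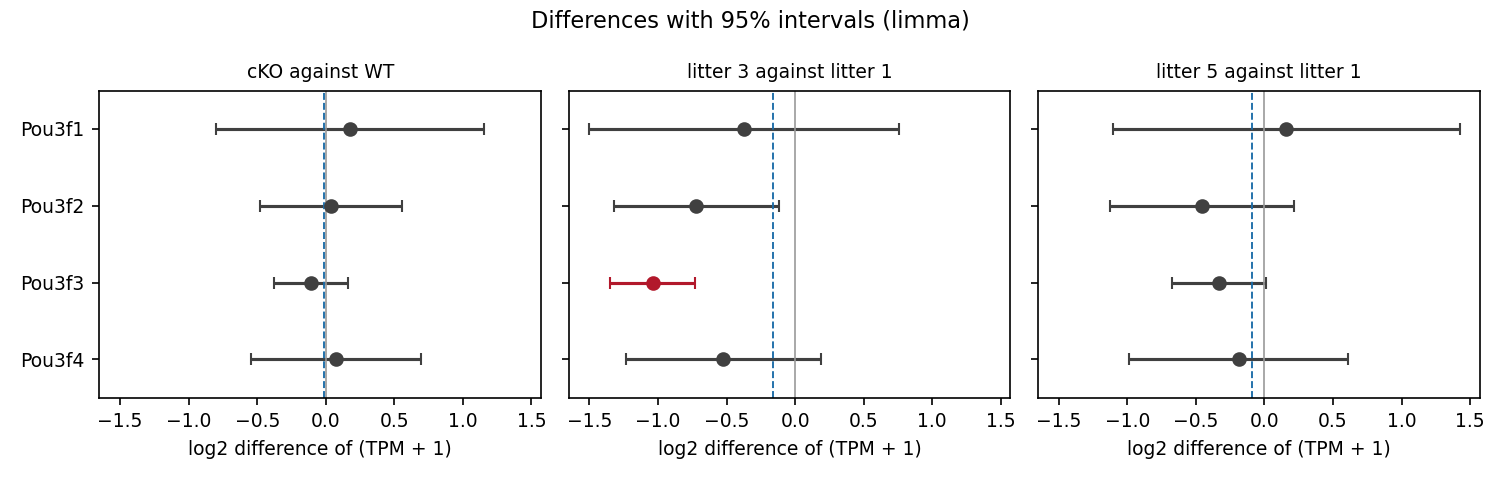
Differences of the Pou3f genes on the log2(TPM + 1) scale (horizontal axis) with 95% intervals from limma, for cKO against WT, litter 3 against litter 1 and litter 5 against litter 1. Red marks an adjusted p under 0.05, which Pou3f3 alone reached, at -1.04 in litter 3 against litter 1, and the dashed line is the median of all genes tested.

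The change in Pou3f3 that passed the test was a change between litters. Pou3f3 fell to 47.87, 63.94 and 68.05 TPM in litter 3, against 113.16 to 129.32 TPM in litter 1, without overlap. The litter 3 minus litter 1 difference was -1.04 (SE 0.14, limma adjusted p = 0.00290), beside a median of -0.16 over all genes. Of all genes tested, 31.6% were called in this contrast and 25.8% were called lower, and 30.1% were lower without overlap, so a lower call was common. Among WT libraries alone the difference was -1.11 (limma adjusted p = 0.0229), and leaving out any library in turn left it between -1.19 and -0.88 with an adjusted p of at most 0.0129.

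Pou3f2 was lower in each of the 3 litter 3 libraries (7.24, 8.34 and 9.83 TPM) than in each of the 5 of litter 1 (11.06 to 20.20 TPM), but its difference of -0.72 did not pass (limma adjusted p = 0.0659). Without cKO 5 or without WT 5 it was called, at -0.64 in both cases, with adjusted p-values of 0.0136 and 0.0142. Pou3f4 had 6.90, 8.58 and 11.02 TPM in litter 3 and 10.08 to 20.08 TPM in litter 1, and Pou3f1 had 1.49, 2.74 and 3.09 TPM in litter 3 and 1.73 to 5.96 TPM in litter 1. Both overlapped, with differences of -0.52 and -0.37 and adjusted p-values of 0.243 and 0.610 in limma.

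Against litter 1, litter 5 gave no called member (0.0217% of genes were called), with differences of 0.16 for Pou3f1, -0.45 for Pou3f2, -0.33 for Pou3f3 and -0.19 for Pou3f4. The litter has 1 library of each genotype and these were far apart. Without WT 5, which leaves cKO 5 alone, Pou3f1 at -1.31, Pou3f2 at -1.17 and Pou3f4 at -1.06 were called (limma adjusted p = 0.0499, 0.0271 and 0.0452), with 1084 genes called in all against 3 with both libraries. Without cKO 5, which leaves WT 5 alone, the differences were 1.76 for Pou3f1, 0.33 for Pou3f2 and 0.76 for Pou3f4, and none was called. In both cases a lone library is assumed to vary like those of the other litters.

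Several other signals moved with Pou3f3 in litter 3. All 10 genes of the dorsal telencephalon list were lower and called, beside 25.8% of all genes called lower, and their summed level was 1130 to 1517 TPM in litter 3 and 2029 to 2459 TPM in litter 1. Lhx2, a LIM homeobox selector gene of the cortex, differed by -0.68 (SE 0.11, limma adjusted p = 0.00370), and Emx1 by -0.58 (SE 0.12, limma adjusted p = 0.00761). Mesenchymal genes went the other way, with 8 of 10 called higher, beside 5.8% of all genes, and sums of 495 to 1071 TPM in litter 3 and 229 to 350 TPM in litter 1. So did erythroid genes, with 9 of 10 called higher and sums of 41871 to 55835 TPM in litter 3 and 17341 to 19743 TPM in litter 1. No gene of these 3 lists was at 0 in any library. The part of these signals in the Pou3f3 difference was not tested. With globin and mitochondrial genes left out before rescaling, the Pou3f3 difference was -0.99 (limma adjusted p = 0.00438).

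The members differed in how they varied together. Over the 10 libraries, log2(TPM + 1) of Pou3f2 and Pou3f4 had a Pearson r of 0.93 and a Spearman rho of 0.96 (permutation p adjusted over the 6 pairs 6.0e-04 and 2.4e-04). Pou3f1 and Pou3f4 had r = 0.89 and rho = 0.90 (adjusted permutation p = 0.00138 and 0.00255), and Pou3f1 and Pou3f2 had r = 0.75 and rho = 0.79 (0.0207 and 0.0184). On residuals after litter and genotype, these r values were 0.95, 0.92 and 0.88 in the same order of pairs. Without the 2 libraries farthest from the median of the first gene they were 0.92, 0.87 and 0.73, the last with an adjusted permutation p of 0.0603 over 8 libraries.

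For Pou3f3 the pairs varied. Its r was 0.37 with Pou3f1 (rho 0.15), 0.60 with Pou3f4 (rho 0.48) and 0.79 with Pou3f2 (rho 0.58), with adjusted permutation p-values for r of 0.286, 0.0801 and 0.0159. For rho the adjusted permutation p-values were 0.686, 0.199 and 0.124 in the same order, so no pair passed by rank. The r with Pou3f2 came down to 0.66 on residuals after litter and genotype (adjusted permutation p = 0.0564). That permutation treats the residuals as interchangeable, which the fit does not leave them, so its p is only a rough guide. The same libraries enter every pair, so the 6 values are not independent, and within a single litter there are at most 5 libraries, too few for a correlation.

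**Figure D4:**
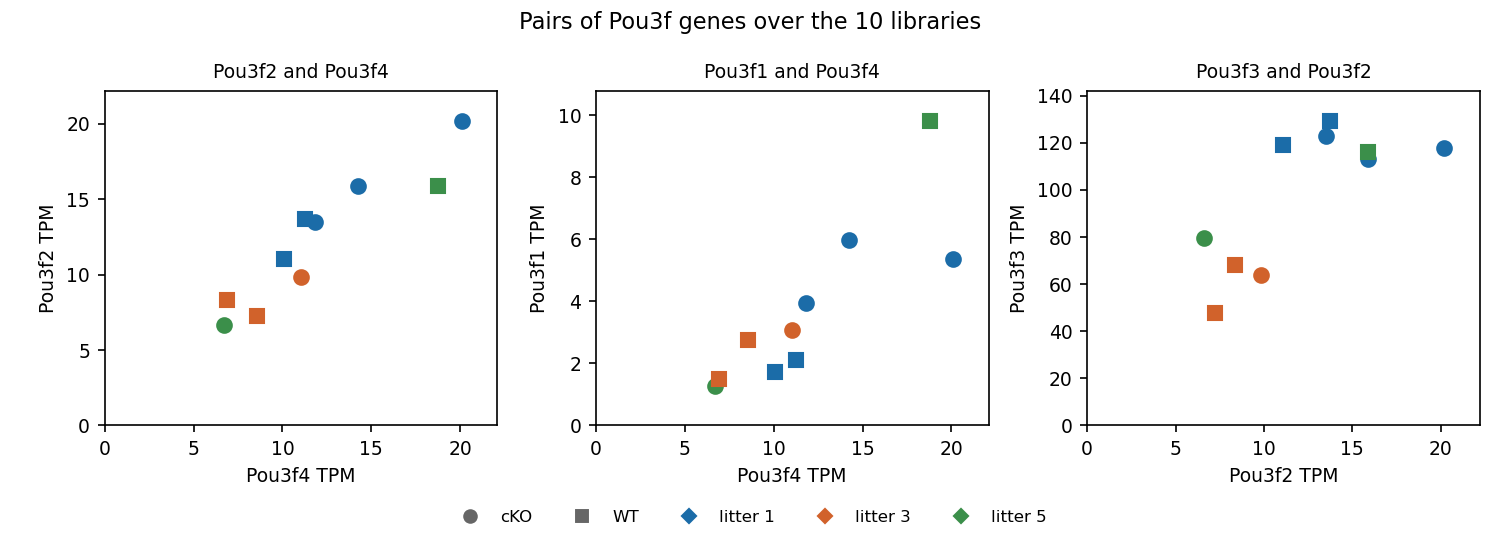
TPM of Pou3f2 against Pou3f4, Pou3f1 against Pou3f4 and Pou3f3 against Pou3f2 (linear axes) in 5 cKO (circles) and 5 WT (squares) libraries coloured by litter. The first pair (r = 0.93 on log2 values) forms a narrow band, while Pou3f3 stays between 113.16 and 129.32 TPM in 6 libraries over a wide range of Pou3f2.

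The libraries with most Pou3f1, Pou3f2 and Pou3f4 were among those with ventral telencephalic transcripts. Dlx1, a homeobox gene of the ganglionic eminences, had 3.62, 33.59, 30.75, 29.88 and 0.18 TPM in cKO 1 to cKO 5 and 0.79, 0.36, 13.58, 0.37 and 65.31 TPM in WT 1 to WT 5. WT 5, cKO 2 and cKO 3, the 3 libraries with most Dlx1, were also the 3 highest for Pou3f1 and for Pou3f4. By contrast cKO 4 had 29.88 TPM of Dlx1 with middling levels of these genes, at 3.09 TPM of Pou3f1 and 11.02 TPM of Pou3f4. The lowest library for Pou3f1, Pou3f2 and Pou3f4 was cKO 5, which had little Dlx1, as did WT 1, WT 2 and WT 4. On the whole ventral list cKO 5 was not the lowest of these, with a sum of 4.25 TPM against 4.06, 3.86 and 3.94 TPM in WT 1, WT 2 and WT 4. A list of 10 genes of the cortical hem and choroid plexus did set cKO 5 apart. Its sum was 1041 TPM there, 395 TPM in WT 5 and 52.0 to 580 TPM over the other libraries. Early neuronal genes summed to 956 TPM in cKO 5 and 1744 TPM in WT 5, with the lowest sum, 916 TPM, in WT 3. The part of these lists in the Pou3f levels was not tested. Of the 15 genes of the ventral list, Nkx2-1, which marks the medial ganglionic eminence, was at 0 in 7 libraries, Gsx2, which marks the lateral ganglionic eminence, in 3, and Dlx1 and Dlx2 in none. Because the libraries fall into separate levels of Dlx1, no correlation with it is given. The members are also made in the ganglionic eminences, and the part of that tissue in their levels was not separated.

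**Figure D5:**
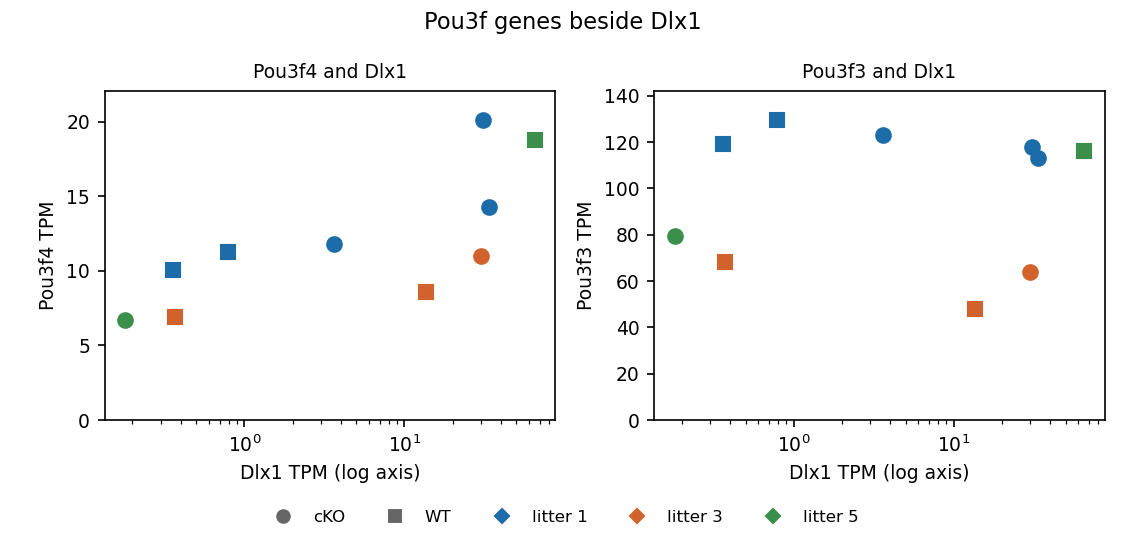
TPM of Pou3f4 (left) and Pou3f3 (right), on linear axes, beside TPM of Dlx1 on a log axis, in 5 cKO (circles) and 5 WT (squares) libraries coloured by litter. The 3 libraries with most Dlx1 have the highest Pou3f4, at 14.25 to 20.08 TPM, while the litter 3 libraries have low Pou3f3, at 47.87 to 68.05 TPM, at both low and high Dlx1.

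With the mean of the ventral list as a further term, the litter 3 minus litter 1 difference was called for Pou3f2, at -0.83 (limma adjusted p = 0.00733), and for Pou3f4, at -0.68 (0.00745), besides Pou3f3 at -1.06 (0.00280). The cKO minus WT differences under that term were -0.14 for Pou3f1, -0.11 for Pou3f2 and -0.12 for Pou3f4, all of the opposite sign to the values without it and none called (limma adjusted p = 0.9999 each). The sex of the embryos is not labelled. Xist, the X inactivation transcript, had 28.94, 39.11 and 70.53 TPM in cKO 1, cKO 3 and cKO 4 and 20.44 TPM in WT 3, and at most 0.01 TPM in the other libraries. With Xist as a term, the X-linked Pou3f4 differed by -0.25 in cKO (limma adjusted p = 0.9).

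The genes with the most similar profile to each member over the 10 libraries, by Pearson r of log2(TPM + 1) among the genes tested, were different for each member. For Pou3f1 they were Lipg (r = 0.96), an endothelial lipase, Robo1 (0.96), a Slit receptor, and Lmo4 (0.95), a LIM-only cofactor. For Pou3f2 they were Slc25a5 (0.99), an ADP/ATP carrier, Nrcam (0.98), a neuronal adhesion molecule, and Samd10 (0.98). For Pou3f4 they were Dpp6 (0.98), a subunit of A-type potassium channels, Sall3 (0.97), a zinc finger factor, and Acsbg1 (0.95), an acyl-CoA synthetase. For Pou3f3 they were Tcf20, a transcriptional coregulator, Gpc1, a heparan sulphate proteoglycan, and Efnb1, an ephrin ligand, each with r = 0.99, and all 3 were called lower in litter 3, by -0.73, -0.56 and -0.59 (limma adjusted p = 0.00385, 0.00311 and 0.00325). These genes were picked for their likeness, so the values are descriptions.

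Pou3f3 lies between a pair of long noncoding genes, Pantr1 (linc-Brn1a) at chr1:42590782-42694842 and Pantr2 (linc-Brn1b) at chr1:42707061-42713454, both on the minus strand and 926 and 3885 bases from it. Pantr1 had 200.71, 408.81, 302.88, 369.57 and 330.83 TPM in cKO 1 to cKO 5 and 234.36, 253.89, 209.04, 238.15 and 250.18 TPM in WT 1 to WT 5. It exceeded every WT library in 4 of the 5 cKO libraries, while cKO 1 was the lowest of all 10. The difference of 0.42 (SE 0.17, limma p = 0.0344, adjusted p = 0.9997) did not pass, and the exact permutation p was 0.0556 over all arrangements and 0.1 within litters. Between litter 3 and litter 1 Pantr1 differed by 0.07 (limma adjusted p = 0.813).

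Pantr2 was low, at 3.57 ± 1.88 TPM in cKO and 3.44 ± 1.02 TPM in WT (SD, n = 5 each), with a difference of -0.03 (limma adjusted p = 0.9997). Within 100 kb of the other members, the protein-coding genes tested were Utp11l, Fhl3, Sf3a3 and Inpp5b near Pou3f1 and Fbxl4 near Pou3f2. None was called for genotype, and none for litter 3. The nearest to the threshold for genotype was Inpp5b, an inositol phosphatase gene, at 16.1 ± 5.06 TPM in cKO and 11.6 ± 1.16 TPM in WT (difference 0.41, adjusted p = 0.9997 in limma). Around Pou3f4 no gene passed the filter.

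Of 10 other POU genes in the table, Pou2f1 and Pou6f1 passed the filter. Pou6f1 averaged 29.2 ± 8.38 TPM in cKO and 22.1 ± 10.1 TPM in WT (SD, n = 5 each), with no call for genotype, and it was called lower in litter 3 than in litter 1, by -1.08 (SE 0.19, limma adjusted p = 0.00443). Pou2f1 averaged 7.13 ± 2.38 TPM in cKO and 6.43 ± 2.45 TPM in WT and was called in neither contrast. Pou4f1, a sensory neuron factor, averaged 0.240 TPM in cKO and 0.216 TPM in WT, and the pluripotency factor Pou5f1 was listed at 0 in 7 libraries.

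Of 9 partner genes of Pou3f proteins, 8 were tested. None was called for genotype (median difference -0.01, as over all genes), and 7 were called lower in litter 3, beside 25.8% of all genes (median -0.93, beside -0.16 over all genes). Sox3, a SoxB1 progenitor factor, averaged 175 ± 23.2 TPM in litter 3 (n = 3) and 318 ± 25.5 TPM in litter 1 (n = 5; SD), and Sox2 averaged 156 ± 21.1 TPM in litter 3 and 243 ± 15.8 TPM in litter 1. Sox11, a SoxC factor of new neurons, averaged 96.0 ± 17.2 TPM in litter 3 and 208 ± 21.9 TPM in litter 1. Sox4 differed by -0.98, Sox1 by -1.08, Myt1l by -1.19 and Pqbp1 by -0.37, all called.

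Of 14 genes reported elsewhere as Pou3f targets and present in the table, 9 were tested. None was called for genotype (median -0.02), and 5 were called lower in litter 3: Nes, Dll1, Cdk5r1, Dab1 and Epha4, beside 25.8% of all genes (median of the list -0.54, beside -0.16 over all genes). Nes, an intermediate filament gene of progenitors whose enhancer binds POU factors, averaged 138 ± 17.1 TPM in litter 3 and 222 ± 23.5 TPM in litter 1, and the Notch ligand Dll1 averaged 50.9 ± 9.66 TPM in litter 3 and 83.5 ± 13.2 TPM in litter 1. Fabp7, the radial glial lipid-binding protein, had a positive difference of 0.19 and was not called (limma adjusted p = 0.304), and neither was Hes5 at -0.24 (0.0507). The other 5 had low levels and did not pass the filter.

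Upper-layer factors were in part already detectable at this stage. Of 10, 8 were tested, with 0 called for genotype (median -0.11) and 5 called lower in litter 3 (among them Cux1, Lhx2, Bhlhe22 and Unc5d), beside 25.8% of all genes. The median of the list was -0.67, beside -0.16 over all genes. Cux1 averaged 75.0 ± 6.12 TPM in litter 3 and 121 ± 11.2 TPM in litter 1 (SD, n = 3 and 5). Lmo4, with 40.1 ± 6.51 TPM in litter 3 and 45.8 ± 9.45 TPM in litter 1, was not called. Early neuronal genes shared the direction, with 10 of 14 called lower in litter 3, and so did apical progenitor genes, with 8 of 12, beside 25.8% of all genes.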

How the data were processed

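RNA of 10 cortices was sequenced, and the authors deposited TPM values (length-scaled transcript abundances with a fixed total per library) for 24814 genes. A second deposited table holds the authors' genotype contrast for 7 genes, and its gene names alone were used. Per the submitters' processing notes, cutadapt, featureCounts, DESeq2 and the build mm10 were used, with no versions given there. TPM keeps no read depth, so no count model or counting interval was applied. A further 5 columns with no library name hold 4 values each and were not used.

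Genes with at least 1 TPM in at least 5 libraries (13833) were tested on log2(TPM + 1), a scale on which changes of low genes come out smaller. The model, fitted with limma 3.58.1 (R 4.3.3), had terms for litter and genotype, a mean trend, two-sided p-values and Benjamini-Hochberg adjustment over all genes tested, called under 0.05. The script was tested on simulated data. Exact permutation tests covered all 252 splits into 5 and 5, or the 60 that keep the litters, and correlations used 100000 permutations. Nothing beyond the labels says how independent the animals of a litter are, so p-values measure the spread between these libraries. Coding sequences came from GENCODE M21 (aligned with MAFFT 7.526), and promoters from RefSeq.

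Groups follow the labels. The members and gene lists were chosen with earlier results of these data known. The genes named are the members, Zbtb7a, the 3 most similar genes of each member, genes within 100 kb, and in each list those with the highest mean TPM or a call. Other genes of a list are named as examples, chosen after their values were seen. Some genes that this rule takes are not reported here. Alternatives changed the pseudocount, the filter, the scaling, the terms of the fit and the libraries.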

Additional observations from a re-analysis of the deposited data

Results flagged for a closer look

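Pou3f1 stood out in WT 5, with 9.81 TPM against at most 2.74 TPM in the other WT libraries. The gap to the nearest library is larger than Dixon's test allows for 5 values, a limit that chance passes in about 1 group of 20. Every member was screened in both genotypes, so several groups had that chance, and no other group passed the limit. WT 5 also had the highest summed level of the ventral telencephalon list, at 194.75 TPM.

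For 3 members the cKO minus WT difference had opposite signs in litters where the genotypes did not overlap, and these contrasts between single litters were not tested. The sign for Pou3f3 also changed, at -0.07, 0.16 and -0.54 in litters 1, 3 and 5, but its genotypes overlapped in litters 1 and 3. The litters compared below are those in which the genotypes did not overlap. In litter 5, with 1 library of each genotype, they could not overlap for any gene, and no share of all genes is given. For Pou3f1 the log2 difference of litter 5 minus that of litter 1 was -3.30, and minus that of litter 3 it was -2.67. For Pou3f4 these values were -1.82 against litter 1 and -1.83 against litter 3, and for Pou3f2 the value against litter 3 was -1.45. Litter 5 has 1 library of each genotype and litter 3 has 1 cKO library.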

How the results depend on the processing

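No genotype difference of a member was called under any alternative, and the call of Pou3f3 in litter 3 against litter 1 was kept under all 19, between -1.19 and -0.86. The signs of the small genotype differences changed: with Xist as a term (Pou3f1 -0.22, Pou3f2 -0.14, Pou3f4 -0.25), with the ventral list (-0.14, -0.11, -0.12), with litters 3 and 5 only (-0.72, -0.32, -0.32), with the replicate block beside litter (Pou3f2 -0.12, Pou3f4 -0.058), and for Pou3f3 without a litter term and with the replicate block in place of it (0.10 in both). Deviations of same-numbered libraries correlated at between -0.29 and 0.30. Differently numbered libraries were not compared, so these values do not decide whether the numbers are pairs. The numbers were not taken as pairs, since number 3 is in litter 1 for cKO and in litter 3 for WT. The block left 2 or 3 genes called for genotype against 5. Leaving out 1 library moved the genotype difference between -0.064 and 0.83 for Pou3f1, -0.10 and 0.35 for Pou3f2, -0.21 and 0.011 for Pou3f3, and -0.076 and 0.46 for Pou3f4, with 3 to 5 genes called. It moved the difference of the genotype effect between litters between -3.30 and -0.63, -1.52 and -0.075, -0.47 and 0.23, and -1.82 and 0.0066 in the same order, with 0 to 21 genes called. For litter 3 against litter 1 it gave -0.63 to -0.19, -0.87 to -0.63, -1.19 to -0.88 and -0.74 to -0.39, with 2585 to 4524 genes called, and for litter 5 against litter 1 it gave -1.31 to 1.76, -1.17 to 0.33, -0.60 to -0.04 and -1.06 to 0.76, with 0 to 1084 genes called. The lowest count in litter 3 came without WT 3. For the genotype difference, the highest value of each member came without cKO 5 or WT 5, when litter 5 no longer bears on it. In litter 1 only, Pou3f1 differed by 1.05 between the genotypes (limma unadjusted p = 0.00207, adjusted p = 0.635).

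Genes called for genotype numbered 3 with the stricter filter, with Xist, and with litters 3 and 5 only, and 1 in litter 1 only. With the ventral list, Pou3f2 at -0.83 and Pou3f4 at -0.68 were called in litter 3 against litter 1, and Pou3f1 in litter 5 turned to -0.22. Among WT libraries only, litter 3 had 2535 genes called and a Pou3f1 difference of 0.069, and litter 5 had 1 gene called, with 0.34 for Pou3f2 and 0.76 for Pou3f4. With Xist, Pou3f4 in litter 5 was at 0.015. Genes called in litter 5 numbered 22 with no filter and 0 with array weights. Within a genotype the order of levels could not pass with 5 libraries: mean log2 ratios were 2.97 in cKO and 3.06 in WT for Pou3f3 over Pou3f2 and 1.79 in cKO and 1.95 in WT for Pou3f4 over Pou3f1 (adjusted exact permutation p = 0.0938 each). For correlations, r of Pou3f2 with Pou3f3 was 0.66 on residuals and 0.73 without the 2 outermost libraries, and r of Pou3f1 with Pou3f2 was 0.73 without them. The cause of these changes was not tested.

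The unknown depth, 1 cKO library in litter 3, 1 library of each genotype in litter 5 and unlabelled sex limit what these values can separate.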
